A study of Mus musculus with 3 samples.

Results

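S100 proteins are small proteins with paired EF-hand loops that bind calcium, and most of them work as dimers. Their transcripts were followed here in whole neuroblastoma tumors of TH-MYCN mice, cell class by cell class. The 9 genes described are S100a1, S100a4, S100a6, S100a8, S100a9, S100a10, S100a11, S100a13 and S100b, a fixed list taken from the 31053 gene symbols in each deposited raw matrix. The matrices hold 8 other S100 genes, S100a2, S100a3, S100a5, S100a7a, S100a14, S100a16, S100g and S100z, which are given by their counts only.

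Inside the cell, calcium opens a binding surface on most S100 proteins through which they hold target proteins such as annexins, the heavy chain of non-muscle myosin and the giant scaffold protein Ahnak. Some are also released, and S100a8 and S100a9 pair into calprotectin, a major cytosolic protein of neutrophils that binds zinc and manganese and acts on the receptors Tlr4 and Ager. S100b is a classic marker of Schwann cells and other glia, which form the stroma of maturing neuroblastomas.

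The 3 tumors belonged to 1 group. TH-MYCN mice carry human MYCN under the tyrosine hydroxylase promoter, which drives the transgene in the sympathetic lineage, and all 3 mice were heterozygous for it. Tumor 1 was taken at 62 days of age, tumor 2 at 79 days and tumor 3 at 63 days. There was 1 tumor per mouse and 1 library per tumor, with no wild-type or other control tissue beside them. Comparisons were therefore made between cell classes, with the tumor as the replicate.

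Cells were those kept by the authors, 1914, 1221 and 2515 for tumors 1, 2 and 3, with median totals of 4282.5, 1594 and 1816 unique molecular identifiers (UMIs, each 1 captured RNA molecule). Levels are CPM, the UMIs of a gene per 1000000 UMIs of all genes in a class of a tumor. The reads come from the 3′ end of each RNA, so that levels do not scale with gene length, and each gene is compared with itself between classes. Classes were named "-like" from marker genes after clustering without the S100 genes. The tumor-like class held 315, 849 and 2048 cells, the macrophage-like class 712, 116 and 187, and the neutrophil-like class 236, 54 and 22. Tumor marker RNA was not limited to tumor-like cells: the summed tumor list ranged from 20.8 to 216 CPM in the other classes of tumor 1 and from 525 to 2676 CPM in those of tumors 2 and 3, against 3082 to 3313 CPM in tumor-like cells. Its part in the S100 levels was not tested. A further 189 cells stayed unnamed, because fewer than 3 markers of their cluster's name passed in their own tumor. The libraries shared 1 to 8 barcodes between pairs, of which 0 to 3 were kept cells in both.

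Of the 9 genes, 8 lie on mouse chromosome 3 (GRCm38, GENCODE M21) and S100b on chromosome 10 at 76253853 to 76261159 on the plus strand. S100a1 (90511034 to 90514392, minus strand) and S100a13 (90514435 to 90524581, plus strand) start head to head, 43 bp apart. S100a4 (90603771 to 90606045) and S100a6 (90612882 to 90624181) follow on the plus strand with 6837 bp between them. S100a8 (90668978 to 90670035, plus strand) and S100a9 (90692632 to 90695721, minus strand) point at each other across 22597 bp. S100a11 (93520488 to 93526287) and S100a10 (93555080 to 93564643), both on the plus strand, lie 2824767 bp further on. S100a4 shares its span with the annotated gene Gm42674, which had 0 UMIs in kept cells, and S100b lies opposite Dip2a. S100a11 has an annotated pseudogene copy on chromosome 12 whose symbol is not in the matrices, so reads shared with it are uncertain.

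Promoter sequences of gene pairs with like levels are shown, taken from RefSeq (GRCm38.p6) and ended at the earliest annotated start, with letter matches in capitals. The promoters are those of S100a8 and S100a9, the neutrophil pair, and of S100a6 and S100a11, which were high in neutrophil-like and stromal classes. Capitals mark the PU.1 core on the minus strand in S100a8, the GC box in S100a9, and in S100a11 the E-box, the AP-1 patterns and the GC boxes, all spelled out in the next paragraph. The S100a6 stretch holds none of them. The short stretch between S100a1 and S100a13 is shown because these genes start head to head.
S100a8 promoter (chr3:90668821-90668977, plus strand): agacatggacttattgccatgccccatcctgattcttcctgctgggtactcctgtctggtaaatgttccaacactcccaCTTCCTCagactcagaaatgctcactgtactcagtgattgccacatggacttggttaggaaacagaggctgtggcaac
S100a9 promoter (chr3:90695722-90695971, minus strand): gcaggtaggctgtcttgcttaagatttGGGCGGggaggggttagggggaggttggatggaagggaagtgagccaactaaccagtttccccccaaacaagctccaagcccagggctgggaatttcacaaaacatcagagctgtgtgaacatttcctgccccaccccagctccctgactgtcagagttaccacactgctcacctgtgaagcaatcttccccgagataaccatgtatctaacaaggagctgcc
S100a6 promoter (chr3:90612644-90612881, plus strand): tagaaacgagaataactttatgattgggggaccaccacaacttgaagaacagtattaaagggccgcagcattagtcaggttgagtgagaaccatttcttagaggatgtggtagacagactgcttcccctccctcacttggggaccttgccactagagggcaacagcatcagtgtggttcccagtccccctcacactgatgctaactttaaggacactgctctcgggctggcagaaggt
S100a11 promoter (chr3:93520246-93520487, plus strand): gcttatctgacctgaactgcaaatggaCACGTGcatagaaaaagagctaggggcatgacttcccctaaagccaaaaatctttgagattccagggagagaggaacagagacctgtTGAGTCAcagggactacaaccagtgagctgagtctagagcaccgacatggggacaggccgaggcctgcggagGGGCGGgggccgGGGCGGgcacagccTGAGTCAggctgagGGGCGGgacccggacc
Between S100a1 and S100a13 (chr3:90514393-90514434, plus strand): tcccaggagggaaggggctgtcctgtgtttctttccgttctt

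The RefSeq table held windows of 300 bases, 250 before and 50 after the start, for 8 of the 9 genes, all but S100a10. Both strands were searched for 6 letter patterns. TATAAA, the TATA box, was found in the windows of S100a4, S100a8 and S100a9 and in 13.6% of all 32851 windows, and it began at -31 in S100a4, at -30 in S100a8 and at the start itself in S100a9. Part of these windows lies past the earliest annotated start and is not printed. TGANTCA, the AP-1 pattern, occurred 2 times in S100a11 and in none of the other windows of these genes (7.81% of all windows hold it). GGGCGG, the GC box, occurred 3 times in S100a11 and once in S100a9 (35.7% of all windows). GAGGAAG, a core bound by PU.1, was in S100a4 and S100a8 (13.6%), and CACGTG, the E-box that MYC proteins bind, was in S100a6 and S100a11 (7.15%). TTNNGCAAT, a C/EBP pattern, was in none of the 8 windows (2.18%). A match describes the letters and no binding was measured.

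S100a8 and S100a9 RNA lay almost wholly in neutrophil-like cells, where both together made up 13.2%, 12.5% and 3.86% of the UMIs in tumors 1, 2 and 3. S100a8 stood at 55059.7, 53922 and 14044 CPM there, and S100a9 at 76529.6, 71358 and 24571 CPM. Tumors 1 and 2 were close to each other, and tumor 3, whose neutrophil-like class had 22 cells, was the lowest for both genes. Of all S100a8 and S100a9 UMIs in kept cells, neutrophil-like cells held 98.1%, 99.1% and 97.7%, although they were 12.3%, 4.42% and 0.875% of the cells. In macrophage-like cells S100a9 stood at 44.0, 35.6 and 4.42 CPM and S100a8 at 29.9, 19.0 and 0 CPM, so that the groups did not overlap. The ratio of neutrophil-like to macrophage-like levels was 1738, 2005 and 5555 for S100a9, and 1842 and 2841 for S100a8 in tumors 1 and 2.

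**Figure D1:**
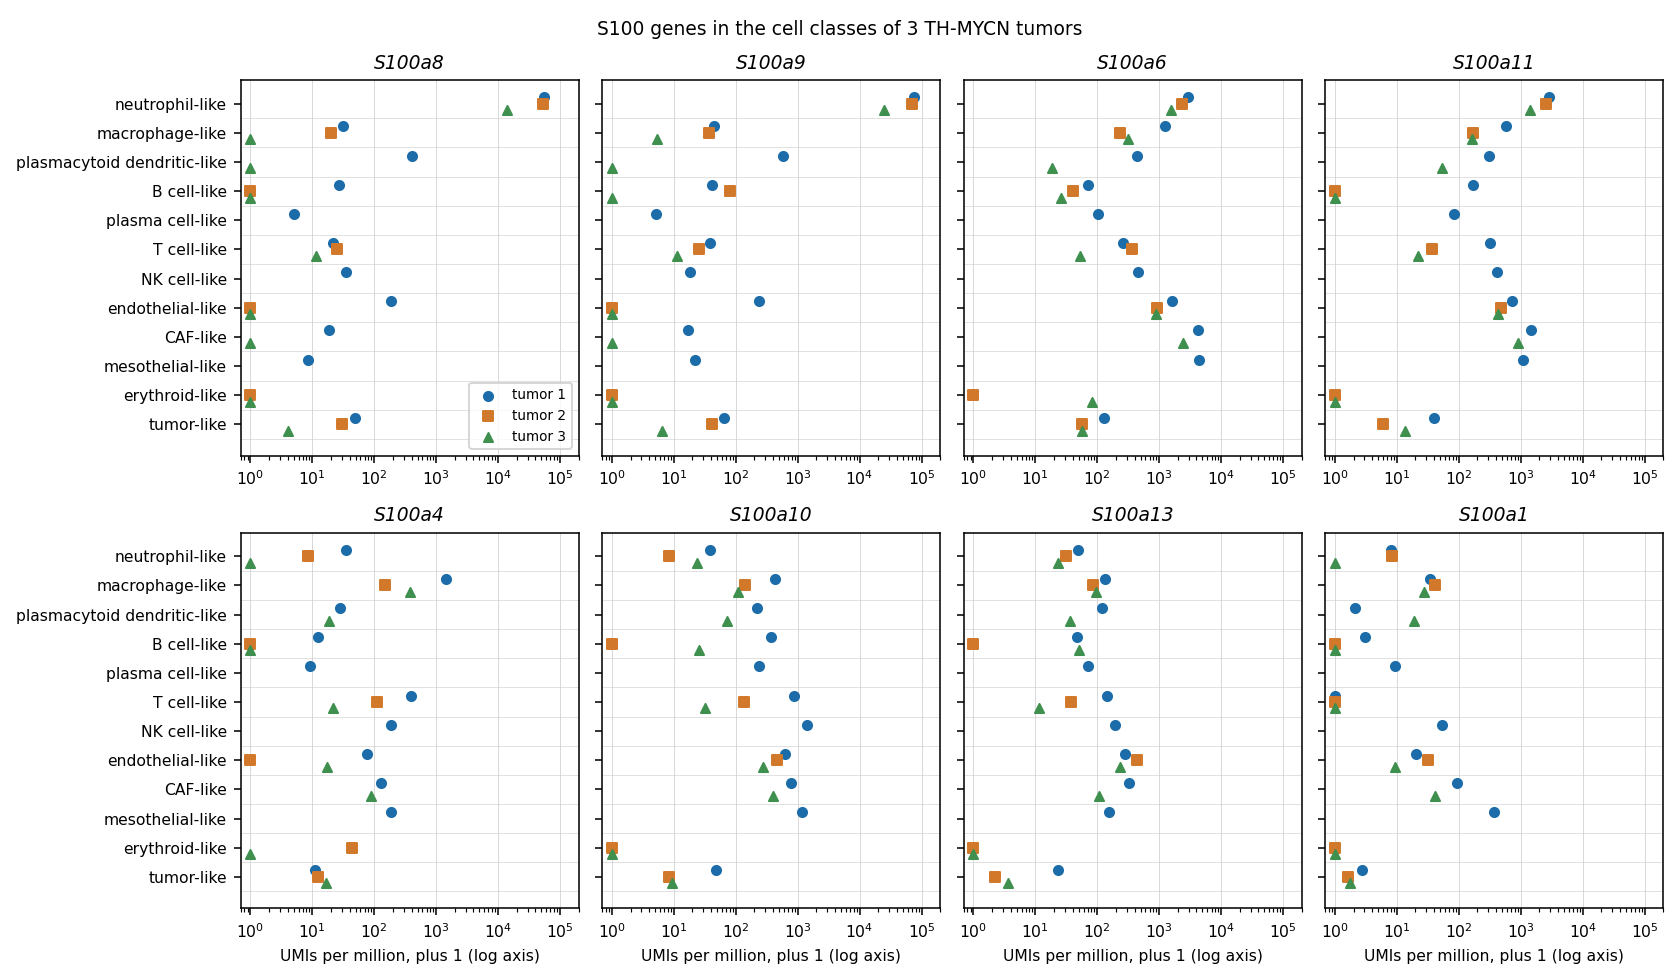
Levels of 8 S100 genes in CPM plus 1 (log axis) for each cell class, 1 point per tumor with at least 10 cells in the class. S100a8 and S100a9 stand at 14044 or more in neutrophil-like cells and at most 573 elsewhere, while S100a6 and S100a11 are high in neutrophil-like and stromal classes alike.

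S100a6 and S100a11 were high in the same cells. S100a6, which binds the ubiquitin ligase adaptor Cacybp, stood at 2910.09, 2347 and 1523 CPM in neutrophil-like cells. S100a11, a partner of annexin A1, stood at 2913, 2557 and 1389 CPM there. For both genes tumor 1 was the highest and tumor 3 the lowest, and every neutrophil-like value was above every macrophage-like and tumor-like value. Neutrophil-like cells ranked 9 of 12 classes by mean S100a4 and 10 of 12 by mean S100a10. S100a4, a binder of non-muscle myosin heavy chain, had 24, 1 and 0 UMIs in neutrophil-like cells (34.0, 7.50 and 0 CPM), and S100a10, the partner of annexin A2, had 26, 1 and 1 (36.8, 7.50 and 22.4 CPM).

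Tested against the average of all remaining classes, each with equal weight (27 class sums, edgeR quasi-likelihood, Benjamini-Hochberg over 9793 genes), 4 of the 8 S100 genes that passed the filter on low counts were higher in neutrophil-like cells and 0 were lower. Over all genes 14.6% were called higher and 1.11% lower. The edgeR adjusted p was 1.01e-08 for S100a8, 6.46e-09 for S100a9, 4.65e-05 for S100a11 and 0.000127 for S100a6, whose log2 fold change was 3.14 ± 0.55 (SE). Erythroid-like sums held no UMI of S100a8, S100a9, S100a10, S100a11 or S100a13. A fitted fold against a mean that includes such a class rests on the fit's prior count, so folds of these genes are given from the fit without the erythroid-like sums. There the log2 change was 11.28 ± 1.03 for S100a8, 11.39 ± 1.01 for S100a9 and 3.78 ± 0.66 for S100a11 (SE), and all 4 calls held. In that fit the 8 genes had a median change of 1.49, against 0.13 over all genes. Without TMM scaling the median over all genes moved from 0.23 to -0.06, and the same number of members was called.

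Set against macrophage-like cells alone (3 sums against 3, edgeR, 6383 genes), 3 of 8 S100 genes were higher in neutrophil-like cells and 0 were lower, where 3.12% of all genes were called higher and 2.76% lower (199 and 176 genes, and 239 and 327 without TMM). S100a8 differed by 11.63 ± 1.51 on the log2 scale (SE, edgeR adjusted p = 0.00633), S100a9 by 11.39 ± 1.22 (0.00561) and S100a11 by 3.28 ± 0.78 (0.0431). The 8 genes had a median difference of 0.65, against -0.02 over all genes tested. S100a4 fell outside the threshold at -4.45 ± 1.15 (edgeR adjusted p = 0.0547), although its neutrophil-like level was lower in 3 of 3 tumors. The classes of a tumor come from the same mouse, and with the tumor as a replicate block 6 of 8 were called: S100a6 joined the higher genes at 2.49 ± 0.51, and S100a4 (-4.78 ± 0.69) and S100a10 (-2.98 ± 0.62) were lower, where the block called 9.38% of all genes higher and 7.69% lower. Without tumor 2 no member passed (0 of 8, S100a9 at an edgeR adjusted p of 0.0572 and S100a8 at 0.0660). In that fit 0 of all 7244 genes tested were called. Without tumor 3 there were 2 members (S100a8 and S100a9), among 13 genes higher and 0 lower of 6346. Without tumor 1 there were 6 of 7 members, among 264 genes higher and 347 lower of 4362. DESeq2 called 5 (3 higher, 2 lower, with 3.12% of all genes lower). Over the 3 tumors alone an exact sign-flip test cannot go below a two-sided p of 0.25.

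Within the neutrophil-like class the share of a cell's UMIs that came from S100a8 and S100a9 ran from 0 to 44.9% in tumor 1, with a median of 4.69%. Tumor 2 had a median of 9.28% and a highest value of 36.5%, and tumor 3 a median of 0.294% and a highest value of 18.7%. Cells under 1% were found in every tumor: 52 of 236, 9 of 54 and 13 of 22. Cells over 10% numbered 90, 23 and 3. Both transcripts were detected together in 202, 49 and 9 cells and neither in 18, 3 and 6. After each cell was thinned to 500 UMIs, 85.2%, 88.9% and 63.6% of neutrophil-like cells had a UMI of S100a9 (exact 95% intervals 80.0 to 89.4%, 77.4 to 95.8% and 40.7 to 82.8%), against 5.40%, 1.77% and 0.195% of tumor-like cells. Median depths were 2608, 2231.5 and 2072 UMIs in the neutrophil-like and 991, 1532 and 1823 in the tumor-like class.

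Other neutrophil genes, listed next, were present in the cells with little S100a8 and S100a9. All of them but Il1b and Cxcl2 were also markers used to name the class, so their presence there is not a separate result. A list of 9 neutrophil genes (Il1b, Cxcl2, G0s2, Csf3r, Retnlg, Cxcr2, Clec4d, Hdc and Il1r2) summed to 35987, 24434 and 18432 CPM in cells under 1%, where these CPM are taken over the UMIs of all genes but S100a8 and S100a9. It reached 50969, 33860.1 and 28665 in cells over 10%. These values pool the cells, and single cells over 10% varied. In tumor 2 a cell with a share of 36.5% had 6 list UMIs of 7927, and a cell at 21.1% had 1 of 4772. In tumor 1 the cell with the highest share, 44.9%, had 384 of 8784. S100a6 differed more between cells under 1% and cells over 10%. It stood at 1167, 662 and 734 CPM of the other UMIs in cells under 1% and at 5489, 4267 and 4206 in cells over 10%. S100a11 ran from 1435, 722 and 408 in cells under 1% to 4987, 4137 and 3272 in cells over 10%. In each tumor both genes were lower in cells under 1% than in cells from 1 to 10%, and lower there than in cells over 10%. These ranges were chosen after the values were seen. Median depth moved the same way, from 2241.5, 1902 and 1904 UMIs to 3298, 2628 and 2548, and its part was not tested. Cells of a tumor are not replicates, and the counts in tumor 3 were small (10 UMIs of S100a11 in 13 cells under 1%, 21 in 3 cells over 10%).

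**Figure D2:**
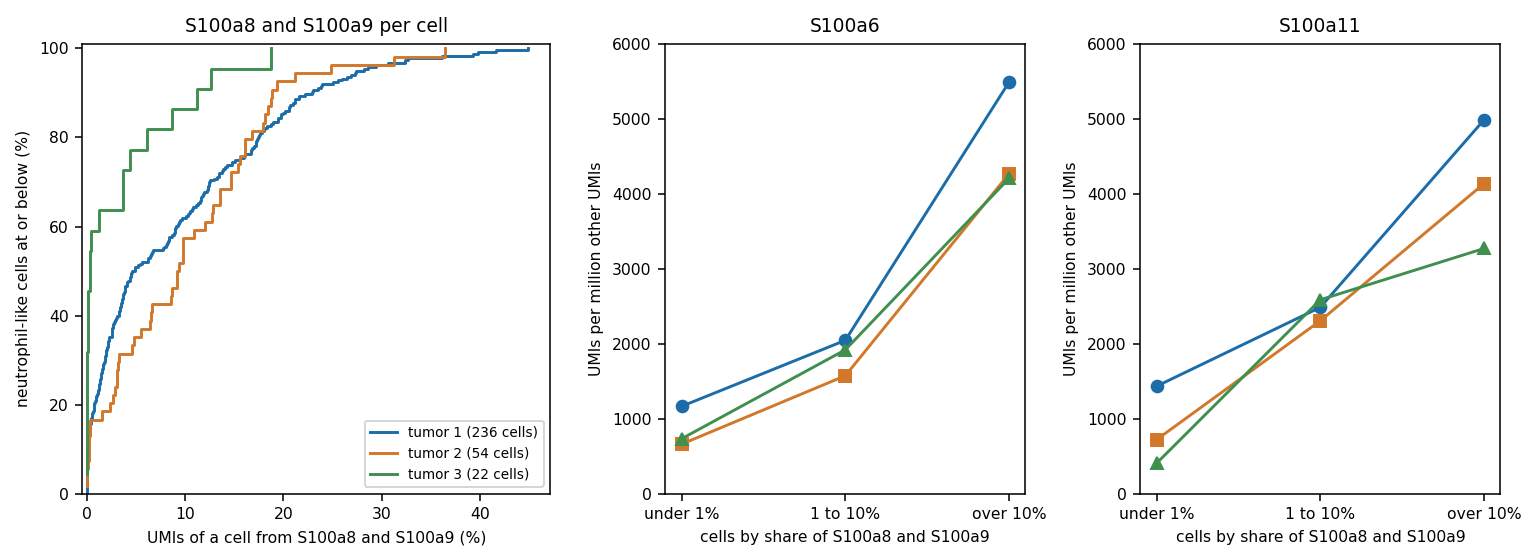
Left, cumulative percentage of neutrophil-like cells by the share of their UMIs from S100a8 and S100a9, 1 line per tumor (236, 54 and 22 cells). Middle and right, S100a6 and S100a11 in CPM of the other UMIs in cells grouped by that share, 1 point per tumor. In each tumor the points are higher for cells over 10% than for those under 1%.

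Outside the neutrophil-like class, S100a8 and S100a9 UMIs were few and spread over most classes. Over all cells of the other classes they amounted to 152, 58.7 and 7.74 CPM together. A few cells held many of them. Cells with at least 10 such UMIs, a limit chosen after the values were seen, numbered 9, 1 and 0 outside the neutrophil-like class. A single plasmacytoid dendritic-like cell of tumor 1 carried 363 S100a8 and 499 S100a9 UMIs together with 190 UMIs of the neutrophil list, which was 95.7% of what its class held. In the endothelial-like class of tumor 1, 2 cells held 91.4%. Among macrophage-like cells of tumor 1, 4 cells held 37.2%, and they were unlike each other: 1 had 4 UMIs of S100a8 and 76 of S100a9, and a pair had 27 and 17 UMIs of S100a8 with 0 of S100a9. Whether such cells are doublets or cells of another kind was not tested, and no doublets were removed here beyond those the authors left out.

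Without these cells the other classes stood at 47.7, 54.5 and 7.74 CPM, and neutrophil-like cells were 2758, 2299 and 4992 times higher. Cells with either transcript then made up 26.1%, 10.8% and 1.60% of the other cells. In tumor 1 the values of named classes without them lay between 8.19 CPM in plasma cell-like and 110 CPM in tumor-like cells. Tumor-like cells, which are not a source of calprotectin in textbook accounts, were above macrophage-like cells in 3 of 3 tumors (110, 63.5 and 8.49 against 46.6, 54.6 and 4.42 CPM), with 95% Poisson intervals that overlapped in tumors 2 and 3. S100a8 gave 40.9% of both transcripts in the other cells of tumor 1 (exact 95% interval 36.8 to 45.1%) and 41.8% in its neutrophil-like cells. The same shares were 41.5% (33.3 to 50.1%) and 43.0% in tumor 2, and 35.0% (20.6 to 51.7%) and 36.4% in tumor 3. Each share in the other cells had the neutrophil-like value inside its interval. Per UMI of the 9 neutrophil genes the values differed. S100a8 with S100a9 stood at 3.38, 4.55 and 1.95 UMIs in neutrophil-like cells, and at 0.0569, 0.227 and 0.0425 in the other cells. In tumor-like cells alone the values were 1.55, 1.96 and 0.333. Macrophage-like cells had 1514, 1041 and 1222 CPM of that list, and tumor-like cells 71.2, 32.4 and 25.5 CPM. The level of S100a8 with S100a9 was not the same in all classes. In tumor 1 the intervals of tumor-like (85.1 to 140 CPM) and macrophage-like cells (41.4 to 52.3 CPM) did not overlap. Whether these UMIs are free RNA, doublets or RNA of the cells themselves was not tested. Intervals cover counting error only. The lowest level was in tumor 3, where neutrophil-like cells held 0.856% of the UMIs of kept cells against 5.597% and 4.87% in tumors 1 and 2. In the authors' corrected counts the other cells without these carriers had 15.8, 34.3 and 3.14 CPM.

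**Figure D3:**
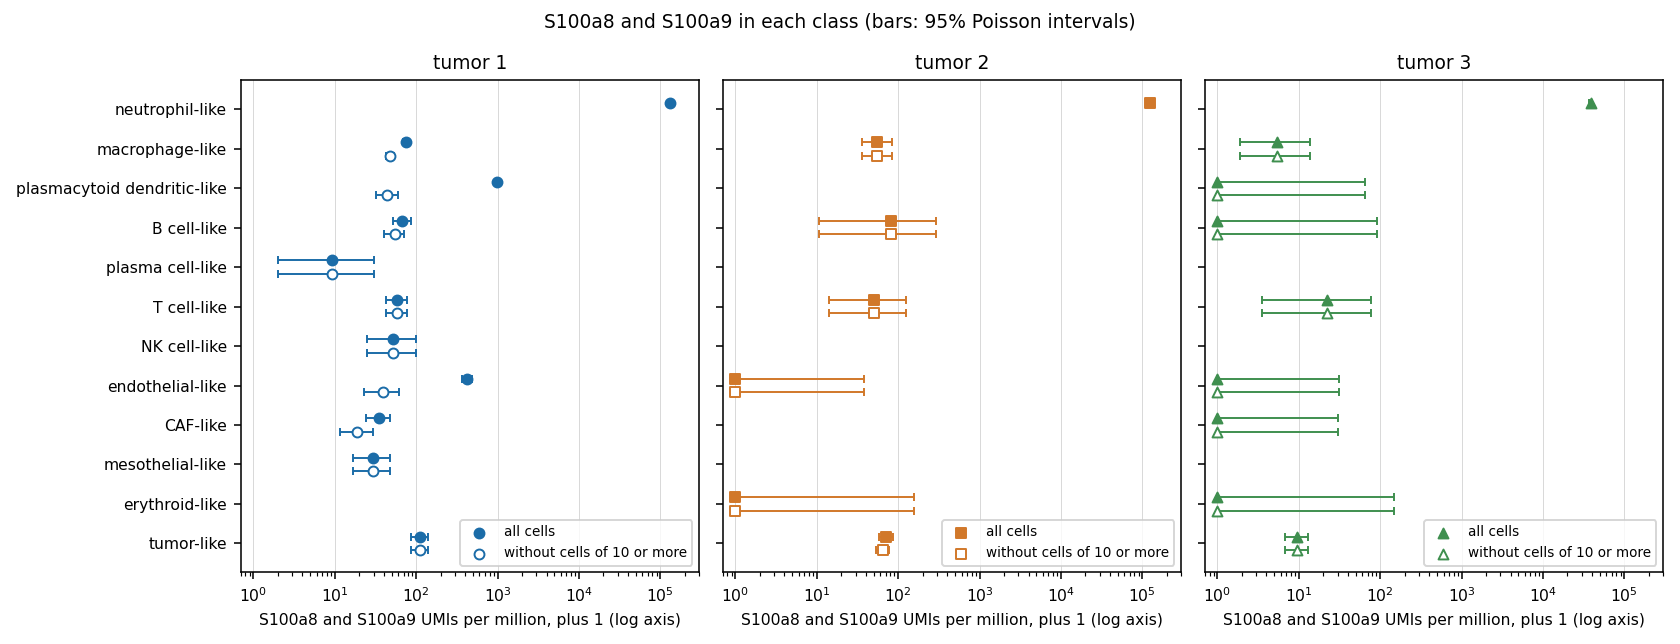
S100a8 and S100a9 together in CPM plus 1 (log axis), by class and tumor for classes of at least 10 cells, with 95% Poisson intervals. Filled points use all cells and open points leave out cells with 10 or more UMIs of both genes together. In tumor 1 the plasmacytoid dendritic-like value falls from 985 to 43.3 and the endothelial-like value from 423 to 37.6.

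S100a4 had its highest mean in macrophage-like cells. It stood at 1438, 147 and 379 CPM there, and 93.0%, 52.1% and 73.0% of its UMIs in the kept cells of tumors 1, 2 and 3 lay in that class. Tumor 1 was far above the others. T cell-like cells had 385, 110 and 20.9 CPM, and tumor-like cells 10.2, 11.6 and 16.0 CPM. The 3 macrophage-like values were each above those of the T cell-like cells of the same tumor, but the ranges of both classes overlapped. Mesothelial-like and NK cell-like cells, with a sum in tumor 1 only, had 186 and 184 CPM. After thinning, 38.5%, 5.17% and 13.4% of macrophage-like cells had an S100a4 UMI, against 0.952%, 0.471% and 0.732% of tumor-like cells. Macrophage-like cells of tumor 1 were also the deepest, with median totals of 7600.5, 2205.5 and 2861 UMIs. The makeup of the class differed between tumors too. Ccr2+-like cells, a subset described below, were 192 of 712, 11 of 116 and 15 of 187 cells. The part of depth and makeup in the S100a4 levels was not tested.

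S100a1, best known from heart muscle, was low in absolute terms in macrophage-like cells but even between tumors, at 33.7, 40.3 and 26.5 CPM. It had 1, 1 and 3 UMIs in tumor-like cells and 0 in 253 T cell-like cells, where 3 UMIs would be 3.799, 36.6 and 31.4 CPM. Against the mean of the other classes, S100a4 (log2 fold change 4.13 ± 0.60 SE, edgeR adjusted p = 2.39e-05) and S100a1 (edgeR adjusted p = 0.00216) were higher, 2 of 8, and 0 were lower, where 10.7% of all genes were called higher and 0.0613% lower. S100a13 was added under the replicate block (edgeR adjusted p = 0.0249, 17.1% of all genes higher), and S100a1 was not called on the authors' corrected counts (0.0730). Without tumor 1 there were 4 calls of 7 members tested, all higher, S100a4, S100a10, S100a11 and S100a13. That fit called 855 of 4329 genes higher and 35 lower. Without the erythroid-like sums the 8 genes had a median change of 0.38, against 0.35 over all genes. A macrophage-like cluster of 175 cells contained 77 led by Ms4a2, Ccr3 and Alox15, genes of mast cells, basophils and eosinophils, and both calls held without it.

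The macrophage-like cells were clustered again and the clusters named by markers. In tumors 1, 2 and 3 the Ccr2+-like subset had 192, 11 and 15 cells. The Pecam1+-like subset had 171, 19 and 29, and the Apoe+-like 84, 15 and 32. A further 265, 71 and 111 cells stayed unnamed and entered no subset level or test. Of these, 275 formed a cluster led by Prima1, Nefl and Stmn2, and 172 one that passed 7 of 9 Pecam1+-like markers. Of the named subsets, Ccr2+-like cells, with markers of classical monocytes, had the most S100a4, S100a6, S100a10 and S100a11 in every tumor. S100a10 stood at 918, 685 and 421 CPM in Ccr2+-like cells, at 142, 97.4 and 74.6 in Pecam1+-like cells and at 123.5, 51.4 and 19.0 in Apoe+-like cells. S100a6 stood at 2339.67, 872 and 1036 CPM in Ccr2+-like, 292, 243 and 362 in Pecam1+-like and 439, 51.4 and 109 in Apoe+-like cells. For both genes no Ccr2+-like value overlapped with those of the other named subsets. Some Apoe+-like values rest on few UMIs, 7 and 4 for S100a10 in tumors 2 and 3 and 7 for S100a6 in tumor 2. S100a4 reached 2355, 478 and 1216 CPM in Ccr2+-like cells and S100a11 987, 769 and 554 CPM. S100a4 overlapped between subsets across tumors, since Pecam1+-like cells had 521, 211 and 437 CPM. S100a8 and S100a9 were at most 32.5 CPM in every subset sum.

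**Figure D4:**
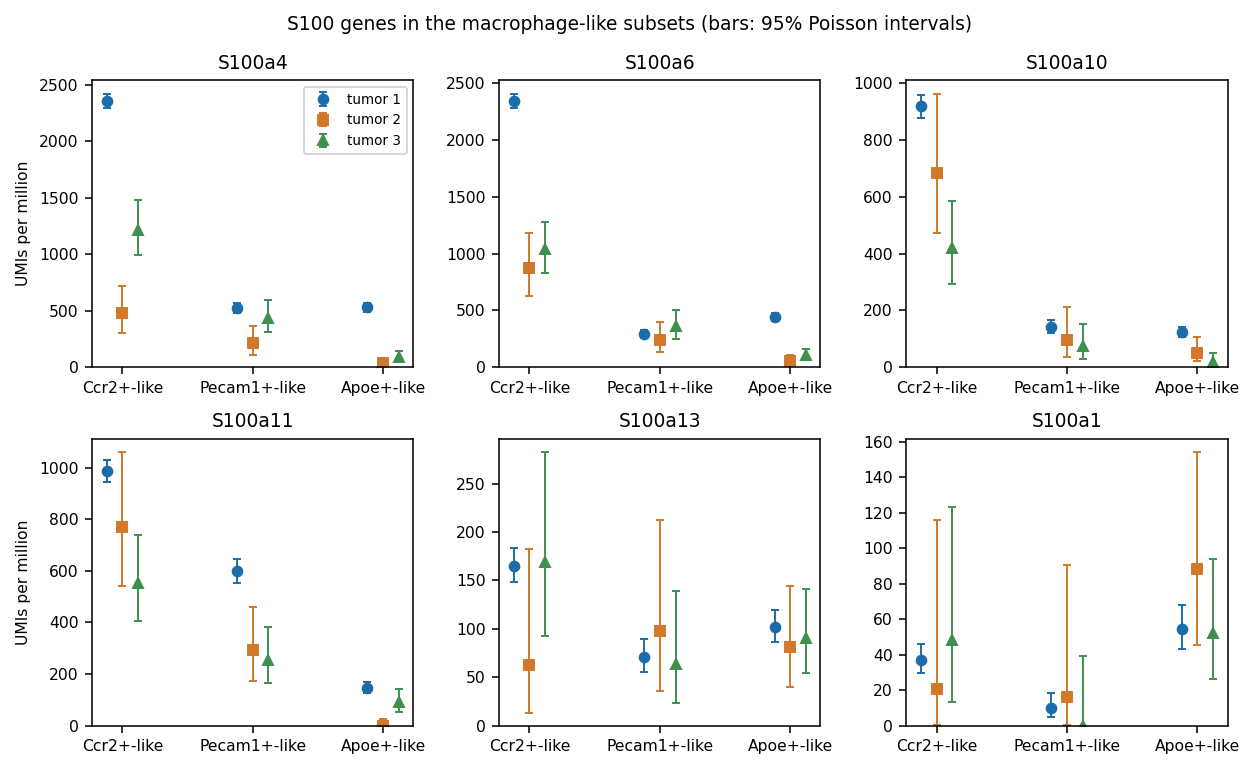
Levels in CPM of 6 S100 genes in the 3 named macrophage-like subsets, 1 point per tumor with its 95% Poisson interval. In each tumor S100a4, S100a6, S100a10 and S100a11 were highest in Ccr2+-like cells, and S100a1 was highest in Apoe+-like cells.

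Only 5 of the 9 genes passed the filter in the subsets (9 sums, 2557 genes), namely S100a4, S100a6, S100a10, S100a11 and S100a13. In Ccr2+-like cells 2 of 5 were called higher and 0 lower, where 0.978% of all genes were higher and 0.508% lower: S100a10 by 2.89 ± 0.44 (log2, SE, edgeR adjusted p = 0.0160) and S100a6 by 2.49 ± 0.51 (0.0410). The block called 4, with S100a4 (2.25 ± 0.30) and S100a11 (2.12 ± 0.38) added, and 2.74% of all genes higher. The 5 members had a median log2 difference of 2.15, against -0.02 over all genes tested. Without tumor 2 no member passed, in a fit that called 21 of 7170 genes higher and 1 lower. Without tumor 3 only S100a10 passed (24 of 7018 genes higher, 9 lower). Clustering at the lower resolution left 0, with 1 of 4491 genes higher and 2 lower. There the Ccr2+-like subset had 2 sums, since tumor 2 had 9 such cells, under the limit of 10.

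Apoe+-like cells, with genes of tissue macrophages, had the lowest S100a10 and S100a11 of the named subsets in each tumor. S100a11 stood at 147, 0 and 90.3 CPM and was lower by a log2 of -2.49 ± 0.66 (SE, edgeR adjusted p = 0.0367), and S100a10 by -1.78 ± 0.50 (0.0481). These were 2 of 5, with 0 higher, where 7.43% of all genes were called higher and 2.62% lower. In genes that was 190 higher and 67 lower, and 154 and 149 without TMM. The block called 4 of 5 lower, with 9.39% of all genes lower. Leaving out tumor 1 called 4 of 4 lower, with 39 of 1766 genes lower. DESeq2 called 0 members (11 of 8513 genes lower). Leaving out tumor 2 or tumor 3 also left 0, with 7 genes lower in each fit. Clustering at the lower resolution lost both calls and called S100a1 higher (1.54 ± 0.39). The 5 members had a median log2 difference of -1.52, against -0.03 over all genes. S100a1, which did not pass the filter, had 54.4, 88.1 and 52.3 CPM in Apoe+-like cells against 37.1, 20.8 and 48.2 in Ccr2+-like and 9.93, 16.2 and 0 in Pecam1+-like cells.

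Pecam1+-like cells, with genes of nonclassical monocytes, had 0 of 5 members called by edgeR in either direction, while 2 were lower without adjustment (p under 0.05) and DESeq2 called 0. Over all genes 5.28% were called higher and 5.24% lower, which was 135 and 134 genes, and 250 and 106 without TMM. The 5 members had a median log2 difference of -0.76, against 0.03. Without tumor 1 the members' median was 0.08. The block called S100a10 lower (-1.16 ± 0.30), with 9.93% of all genes. S100a11 in these cells, at 598, 292 and 256 CPM, lay between the other subsets in each tumor.

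Stromal classes carried most of the remaining S100 RNA. CAF-like cells (cancer-associated fibroblasts, 48 and 30 cells in tumors 1 and 3, and 9 in tumor 2, too few for a sum) had S100a6 at 4175 and 2467 CPM, S100a11 at 1448 and 889, S100a10 at 776 and 393, S100a13 at 321 and 104 and S100a1 at 93.3 and 40.1. The 9 cells of tumor 2 had 3273 CPM of S100a6, which lies between the other tumors. Mesothelial-like cells, which line body cavities, had 16, 4 and 6 cells. Their S100a6 was 4422, 10908 and 1722 CPM and their S100a1 was 364, 505 and 140 CPM, above the CAF-like value of the same tumor for S100a1 in 3 of 3 tumors. In the 16 cells of tumor 1 S100a10 was 1161 CPM and S100a11 1083 CPM.

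In CAF-like cells 3 of 8 members were higher and 0 lower, where 13.9% of all genes were called higher and 0.0817% lower. These were S100a6 by 3.38 ± 0.61 (log2, SE, edgeR adjusted p = 0.000163), S100a1 (edgeR adjusted p = 1.67e-05) and S100a11 (0.0156). S100a10 (edgeR adjusted p = 0.000311) and S100a13 (0.00129) were added by the block, which called 16.8% of all genes higher. S100a11 was lost without tumor 2 (0.0502), on corrected counts (0.137) and without the erythroid-like sums (0.0682). In that last fit 13.7% of all genes were higher, and the 8 genes had a median change of 1.47, against 0.28 over all genes.

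Endothelial-like cells had the highest mean S100a13 of the classes. S100a13, which takes part in the release of Fgf1 and Il1a from cells without a signal peptide, stood at 278, 434 and 230 CPM there and at 22.05, 1.22 and 2.57 CPM in tumor-like cells. It overlapped with CAF-like cells. S100a6 was 1600, 919 and 878 CPM, S100a11 713, 475 and 435 CPM, and S100a10 613, 455 and 271 CPM, each with tumor 1 highest. Against the mean of the other classes only S100a13 was called, 1 of 8 (edgeR adjusted p = 0.0148), and 0 were lower, where 11.9% of all genes were called higher and 0.143% lower. The call was lost without tumor 2 (0.222), without tumor 3 (0.0645), without the erythroid-like sums (0.0623) and with DESeq2 (0.205). The block called 4, S100a6, S100a10, S100a11 and S100a13 (15% of all genes higher). So did leaving out tumor 1, in a fit that called 804 of 4329 genes higher and 51 lower. Without the erythroid-like sums the median change was 0.68 for the 8 genes and 0.18 for all genes.

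Among lymphoid cells S100a10 stood at 878, 134 and 31.4 CPM in T cell-like cells of tumors 1, 2 and 3, and at 1418 CPM in the 32 NK cell-like cells of tumor 1, the highest S100a10 of all class sums. T cell-like cells had S100a11 at 313, 36.6 and 20.9 CPM. In these cells tumor 1 was far above the other tumors for both genes. The tumor marker list in the T cell-like class stood at 134, 1487 and 2676 CPM, and its part was not tested. Of the 8 members tested, edgeR called 0 in T cell-like cells, 1 was higher without adjustment (p under 0.05), and DESeq2 called 0. Over all genes 2.38% were called higher and 0% lower, with 67 lower without adjustment and 2 lower with DESeq2. S100a4 was called higher by the block (2.18 ± 0.44, with 4.57% of all genes). The members' median was -0.36 with all tumors and 1.35 without tumor 1. S100a1 was lower without the erythroid-like sums (edgeR adjusted p = 0.0157), where 0.101% of all genes were lower and the median change was -1.33 for the 8 genes and 0.12 for all genes.

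Tumor-like cells were low in every member. S100a6 was 125, 55.5 and 55.1 CPM, S100a10 47.5, 7.32 and 8.24, S100a11 39.0, 4.88 and 12.6, and S100a13 22.05, 1.22 and 2.57. For S100a10, S100a11 and S100a13 tumor 1 was the highest. The tumor-like cells of tumor 1 also had more CAF marker RNA (354 CPM against 25.01 and 68.7) and T cell marker RNA (185 CPM against 12.8 and 9.78), whose part was not tested. Endothelial-like cells were above tumor-like cells of the same tumor by 12.7, 16.6 and 15.9 times for S100a6 and by 12.9, 62.1 and 32.9 times for S100a10.

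Of 8 members, 1 was called lower in tumor-like cells and 0 higher, where 28.9% of all genes were called higher and 1.79% lower: S100a6, by -2.67 ± 0.82 (log2, SE, edgeR adjusted p = 0.0164). For 6 of the others the fit gave no usable error, since at least 1 other class held no UMI of the gene. Without the erythroid-like sums 5 were lower, S100a4 (-2.79 ± 0.94), S100a6 (-3.38 ± 0.87), S100a10 (-4.51 ± 1.20), S100a11 (-4.89 ± 1.16) and S100a13 (-4.43 ± 0.94), in a fit that called 10.4% of all genes lower. The 8 genes had a median of -3.68 there, against 0.06 over all genes. DESeq2 with all sums called 5 lower, S100a1, S100a6, S100a10, S100a11 and S100a13, and 8.1% of all genes. S100a6 was not called without tumor 2 (edgeR adjusted p = 0.115), without tumor 3 or on corrected counts. These are levels per UMI, so fewer molecules of a gene and more RNA of other genes cannot be told apart.

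S100b was almost absent. In all kept cells 6 UMIs were counted, 5 in CAF-like cells of tumor 1 and 1 in a CAF-like cell of tumor 3, and tumor 2 had 0. One CAF-like cell of tumor 1 held 3 of them together with 2 UMIs of Sox10, a Schwann cell gene, and 37 of Col1a1, a fibroblast gene. In tumor-like cells 0 UMIs were seen, where 3 counts would be 5.09, 1.83 and 0.772 CPM in tumors 1, 2 and 3, so that a lower level was not detectable at this depth. No cluster met the Schwann markers.

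Beyond the 9 genes, S100a16 had 677 UMIs in 167 cells, of which CAF-like cells held 44.7%, 26.1% and 28.6% in tumors 1, 2 and 3. S100a3 had 22 UMIs, S100a7a 8, S100a14 2, S100a2 and S100g 1 each, and S100a5 and S100z 0.

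Of 16 known partners and receptors fixed as a list, 15 passed the filter over all classes. In neutrophil-like cells 5 of 15 were higher and 0 lower, where 14.6% of all genes were called higher and 1.11% lower. The largest changes were in Anxa1 (log2 5.19 ± 0.62, SE, edgeR adjusted p = 7.32e-07), Tlr4 (4.93 ± 0.66, 7.99e-06) and Anxa11 (3.44 ± 0.58, 8.58e-05). Tlr4 is the receptor for released calprotectin and Anxa1 the partner of S100a11. Macrophage-like cells had 4 higher and 0 lower (10.7% of all genes higher), led by Anxa4 (3.28 ± 0.50), Cd36 (3.08 ± 0.72) and Tlr4 (2.66 ± 0.74). CAF-like cells had 6 higher (13.9% of all genes), led by Anxa1 (4.77 ± 0.68), Anxa5 (3.39 ± 0.45) and Anxa4 (3.12 ± 0.62). Endothelial-like cells also had 6 higher (11.9% of all genes). They were led by Cd36 (6.57 ± 0.57), a fatty acid receptor of capillaries that also binds S100a8 with S100a9, then Tlr4 (3.01 ± 0.83) and Anxa2 (2.85 ± 0.63). With DESeq2 the partners called higher were 5 in neutrophil-like (957 of 8959 genes higher) and 3 in macrophage-like cells (816 of 10482). They were 2 in CAF-like (550 of 10863) and 2 in endothelial-like cells (586 of 12005). In neutrophil-like cells DESeq2 also called 1 partner lower, where 89 genes were lower.

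Tumor-like cells had 1 of 15 partners higher, Cacybp (1.49 ± 0.35, edgeR adjusted p = 0.00337), the partner of S100a6, and 1 lower, Anxa5 (-2.60 ± 0.60, 0.00299). Over all genes 28.9% were called higher and 1.79% lower. Without the erythroid-like sums 7 of 15 were lower, in the fit that called 10.4% of all genes lower. DESeq2 with all sums called 8 of 15 lower and 1 higher, where 942 of 11625 genes were lower and 2986 higher. T cell-like cells had 0 called. Against macrophage-like cells, neutrophil-like cells had Anxa4 lower (-3.75 ± 0.77), 1 of 14, where 2.76% of all genes were lower. In the subsets 10 partners were tested. Apoe+-like cells had Anxa4 (2.30 ± 0.40) and Anxa5 (1.12 ± 0.30) higher and Ahnak lower (-1.79 ± 0.38), where 7.43% of all genes were higher and 2.62% lower. Pecam1+-like cells had Anxa4 lower (-2.49 ± 0.51, with 5.24% of all genes lower), and Ccr2+-like cells had 0 called.

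Across the 27 class sums, which share 3 libraries and differ in depth, the log2 levels of the members fell into pairs, given as descriptions with no test. S100a8 and S100a9 had a Pearson r of 0.98, S100a10 and S100a13 of 0.92, and S100a6 and S100a11 of 0.91. S100a8 and S100a11 had 0.59. The head-to-head neighbors S100a1 and S100a13 had 0.68, below the 0.92 of S100a13 with S100a10.

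Among 6446 genes with a mean of at least 20 CPM, the genes closest to S100a8 were S100a9, Retnlg (0.95) and Acod1 (0.94), and the same 3 positions for S100a9 were S100a8, Retnlg and Acod1. S100a11 was closest to Anxa2 (0.96), Sri (0.93) and Ostf1 (0.93), and S100a6 to Anxa2 (0.91), S100a11 (0.91) and Vim (0.90). S100a10 was closest to S100a13 (0.92), Mndal (0.91) and H2-T22 (0.91), and S100a13 to S100a10 (0.92), Tapbp (0.91) and Vim (0.89). By Pearson r S100a4 had no neighbor above 0.78, the first being Bcl2a1d (0.78), Npc2 (0.77) and Cx3cr1 (0.76), and by Spearman's rho its 3 closest genes were others, at 0.78 to 0.81. S100a1 was closest to Tns3 (0.84), and Rbpms was at 0.81. For S100b the closest were Apod (0.96), Actg2 (0.95) and Dpt (0.93), which rests on 6 UMIs.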

How the data were processed

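Whole tumors of 3 mice were dissociated and profiled by droplet 3′ RNA sequencing, and the deposited raw counts are UMI counts per gene and barcode without further processing. The deposited normalized values are the natural log of 1 plus a count corrected by the authors for ambient RNA, after removal of doublets and of barcodes outside limits set per tumor. The submitters' processing notes name Cell Ranger 3.1.0, Seurat 3.1.5 and mm10. The normalized values defined the kept cells and gave 1 alternative (corrected counts, 100% of them whole). They lack S100b. Members and lists were chosen with earlier results of these data known.

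Clustering used the raw counts of kept cells (R 4.3.3, Seurat 5.3.0; 2000 variable genes without S100 genes and listed partners, canonical correlation integration, 30 dimensions, 20 neighbors, resolution 1; subsets 0.5). Names required 3 or more markers at 2-fold or more over the other cells, each detected in 10% of the cluster, also within the tumor. Sums per tumor and class, from 10 cells up, were compared with edgeR 4.0.16 (low-count filter, TMM, quasi-likelihood, Benjamini-Hochberg, threshold 0.05); each SE is the fold change divided by the root of its F value. A class with 1 sum is assumed to vary like the others. The code was tested on simulated counts. Same-tumor sums come from the same mouse and are paired: the correlation of deviations from class means was 0.33 to 0.66 within tumors and -0.52 to 0.25 between them (neutrophil-like and macrophage-like, 6383 genes), and 0.17 to 0.65 against -0.40 to 0.15 for the subsets. Genes were named by rule: the members, their 3 closest genes by Pearson r, other S100 genes, a partner list with up to 3 called genes per comparison and 9 neutrophil genes. Gene symbols were placed with GENCODE M21, which holds 98.1% of them. Alternatives were DESeq2 1.42.0, no filter, the block, each tumor left out, corrected counts, no TMM, other resolutions, and, chosen after seeing the data, leaving out the erythroid-like sums, the mixed macrophage-like cluster or cells rich in S100a8 and S100a9. Results on some genes are not reported here.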

Additional observations from a re-analysis of the deposited data

Results flagged for a closer look

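Barcodes that the authors left out, 1343, 3106 and 3523 in tumors 1, 2 and 3, also held S100a8 and S100a9 above the limit that a count of 0 allows, a signal in data that no comparison used. S100a8 stood at 55.0, 29.4 and 1.42 CPM in them and S100a9 at 84.2, 34.3 and 2.02 CPM. In tumor 2 a single barcode with at least 100 such UMIs held 69.5% of them and in tumor 1 a single one held 25.3%; in tumor 3 no barcode reached 100. Among the kept neutrophil-like cells 121, 37 and 6 did.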

How the results depend on the processing

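Of S100 members called in a comparison, none changed direction under an alternative in which it was tested. Of these checks 172 kept the call and 31 lost it, 10 of them without tumor 2 and 6 without tumor 3. Single partner genes were not checked in this way. The 4 calls in neutrophil-like cells were kept in number when each tumor was left out (4 to 4). For the other comparisons, leaving out each tumor gave 2 to 4 called members in macrophage-like cells (2 with all tumors), 0 to 1 in tumor-like (1), 2 to 3 in CAF-like (3), 0 to 4 in endothelial-like (1) and 0 to 0 in T cell-like cells (0). It gave 0 to 6 for neutrophil-like against macrophage-like (3), 0 to 0 for Pecam1+-like (0), 0 to 2 for Ccr2+-like (2) and 0 to 4 for Apoe+-like cells (2).

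The replicate block gave 5 in CAF-like, 4 in endothelial-like, 1 in T cell-like, 6 in neutrophil-like against macrophage-like, 1 in Pecam1+-like cells, and 4 each in Ccr2+-like and Apoe+-like cells. It moved no other count of members by over 1.5 times and lost no call of a member. DESeq2 gave 5 in tumor-like, 0 in endothelial-like, 5 against macrophage-like and 0 in Apoe+-like cells. No filter on low counts gave 2 in tumor-like (of 19642 genes, 213 lower), 6 in CAF-like (2381 higher) and 4 in endothelial-like cells (1656 higher). It gave 1 in T cell-like cells (638 higher) and 5 against macrophage-like cells (of 16626 genes, 541 higher and 336 lower). In the subsets it gave 1 in Pecam1+-like (of 15420 genes, 160 lower) and 4 in Ccr2+-like cells (80 higher). Without TMM there were 2 in tumor-like (of 9793 genes, 215 lower) and 2 in endothelial-like cells (1647 higher). There were 5 against macrophage-like cells (of 6383 genes, 239 higher and 327 lower). Corrected counts gave 1 in macrophage-like (of 5838 genes, 686 higher), 0 in tumor-like (50 lower) and 4 in Ccr2+-like cells (of 1018 genes, 37 higher). The lower resolution gave 5 in CAF-like (of 7861 genes, 1392 higher) and 2 in endothelial-like cells (1096 higher). It gave 0 in Ccr2+-like cells (2 sums) and 1 in Apoe+-like cells (S100a1, higher, with both lower calls lost). For Apoe+-like cells 220 of 4491 genes were higher there and 31 lower. The higher resolution gave 0 in the Apoe+-like class. It left 1 Ccr2+-like sum, too few for a count there. Without the mixed macrophage-like cluster there were 2 in tumor-like cells (of 9793 genes, 221 lower). Without the erythroid-like sums there were 5 in tumor-like, 0 in endothelial-like and 1 in T cell-like cells. The causes were not tested. The members' median changed sign without tumor 1 in T cell-like (-0.36 to 1.35) and Pecam1+-like cells (-0.76 to 0.08), and the median over all genes in 13 fits, in neutrophil-like cells from 0.23 to -0.06 without TMM and to -0.15 without a filter. Without TMM the median change over all genes moved by over 0.1, from 0.54 to 0.64 in tumor-like, 0.34 to 0.62 in endothelial-like and 0.35 to 0.47 in T cell-like cells, from -0.02 to -0.32 for neutrophil-like against macrophage-like, and from 0.03 to 0.24 in Pecam1+-like and -0.03 to -0.25 in Apoe+-like cells.

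S100a8 with S100a9 outside neutrophil-like cells (152, 58.7 and 7.74 CPM in tumors 1, 2 and 3) stood at 123.3, 42.1 and 3.14 CPM in corrected counts, at 139.2 and 3.44 CPM in barcodes left out by the authors in tumors 1 and 3, and at 47.7 CPM in tumor 1 without cells of at least 10 such UMIs. Unthinned, the shares of cells with a UMI were 10.8%, 6.60% and 1.03% for S100a9 in tumor-like cells and 72.3%, 19.0% and 28.3% for S100a4 in macrophage-like cells. Small classes limit precision: the neutrophil-like class of tumor 3 had 22 cells. Spearman's rho kept all 3 of the closest genes by Pearson r for S100a10, 2 for S100a6, S100a8, S100a13 and S100b, 1 for S100a1, S100a9 and S100a11, and 0 for S100a4.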
